A study of Mus musculus with 13 samples.

Results

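A set of 10 genes known for shutting down kinase signalling and inflammatory messages was followed through RNA sequencing libraries of spinal cord glia, 10 of the 39171 genes in the deposited expression table. They were taken by symbol, each matched 1 row, and comprise 6 dual-specificity phosphatases (Dusp1, Dusp2, Dusp4, Dusp5, Dusp6 and Dusp10), 3 members of the Zfp36 family (Zfp36, Zfp36l1 and Zfp36l2) and Socs3. The libraries came from spinal cords of C57BL/6 mice, either mice lacking Il33, which encodes the alarmin cytokine interleukin-33 (KO), or littermate controls (WT). Astrocytes were sorted by the Aldh1l1-GFP reporter, green fluorescent protein driven by an astrocyte gene, which the mice behind the 7 astrocyte libraries therefore carried in both genotypes. Microglia, the resident macrophages of the cord, were sorted by CD11b, an integrin that other myeloid cells also carry. There were 3 WT and 3 KO microglia libraries, all from postnatal day 12. Of the 3 WT astrocyte libraries, replicate 3 was from postnatal day 9, as was replicate 2 of the 4 KO astrocyte libraries, and the other astrocyte libraries were from day 12. The labels name no promoter or cell type that limits the KO, and they call the libraries biological replicates. The samples are bulk RNA, so fewer cells of a type and less RNA per cell cannot be told apart.

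Mitogen-activated protein (MAP) kinases are switched on by phosphorylation and drive the transcription of early response genes. The dual-specificity phosphatases listed here take those phosphates off again. Dusp1, Dusp2, Dusp4 and Dusp5 are nuclear enzymes made in response to the same signals, Dusp6 is a cytoplasmic phosphatase for ERK kinases, and Dusp10 acts on the stress kinases p38 and JNK. Zfp36, also called tristetraprolin, and its relatives bind AU-rich elements in the 3′ untranslated regions of messages such as Tnf and recruit the machinery that removes the poly(A) tail, and p38 signalling restrains Zfp36 protein. Socs3 is a feedback inhibitor of cytokine receptors that use gp130 and STAT3. Many of these genes are early response genes themselves and can be induced while cells are dissociated and sorted.

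Il33, the gene removed, was at 96.3 to 113 FPKM (fragments scaled by gene length and library size, the deposited unit) in WT astrocytes and at 0.424 to 2.28 in KO astrocytes, while all microglia libraries were at 0 to 1.26. The summed level of 10 microglia markers (Cx3cr1, P2ry12, Tmem119 and others) ran from 9259 to 10165 FPKM in the microglia libraries and from 8.86 to 67.0 in the astrocyte libraries. The summed level of 10 astrocyte markers (Aldh1l1, Aqp4, Slc1a3 and others) ran from 71.4 to 113 FPKM in microglia and from 6520.2 to 11233 in astrocytes. Both populations also held oligodendrocyte messages such as Mbp, with 10 markers summing to 1079 to 2666 FPKM in microglia and to 4604 to 8234 in astrocytes. The depth in reads is unknown, since the table holds no counts. From the smallest step between low values, the microglia libraries were 81.2% to 100% as deep as the deepest library and the astrocyte libraries 35.4% to 65.1%. Low values in astrocytes are therefore the least precise.

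Of the 10 genes, 6 carry the heptamer TATTTAT, the core of the AU-rich element that Zfp36 proteins bind, in the annotated 3′ untranslated region. The 6 are Dusp1, Dusp2, Zfp36, Zfp36l1, Zfp36l2 and Socs3, while Dusp4, Dusp5, Dusp6 and Dusp10 hold 0 matches. Only the message strand was searched and overlapping matches were counted, in the transcript of each gene with the longest coding sequence (GENCODE release 21, GRCm38). Dusp1 (690 bases of untranslated region), Zfp36 (774), Zfp36l1 (1835) and Zfp36l2 (1822) hold 3 matches each, Socs3 (1474) holds 2 and Dusp2 (581) holds 1. The longer run TTATTTATT occurs 2 times in Dusp1, 1 time each in Zfp36, Zfp36l1 and Zfp36l2, and 0 times in Dusp2 and Socs3. Among genes whose region is within 20% of the same length, 1.22% hold as many as Dusp1, 1.20% as many as Zfp36, 3.98% as many as Zfp36l1 and 4.01% as many as Zfp36l2. The shares were 10.8% for Socs3 and 15.5% for Dusp2, whose matches are therefore less unusual. A match is a run of letters and not a measured binding site. The stretch of 30 bases with the most matches is shown for each gene, 5′ to 3′ on the message strand with the heptamer in capitals, because it shows that the messages for the decay factors hold the letters those factors bind. The stretches lie at chr17:26506149-26506178 (minus strand) in Dusp1, chr2:127338313-127338342 (plus) in Dusp2, chr7:28376956-28376985 (minus) in Zfp36, chr12:80108412-80108441 (minus) in Zfp36l1, chr17:84184904-84184933 (minus) in Zfp36l2 and chr11:117966129-117966158 (minus) in Socs3.
Dusp1: ctTATTTATttaacacccccctcacccccc
Dusp2: taTATTTATatagaacattgaggttgtgtc
Zfp36: ttTATTTATgacgacttTATTTATtgtatt
Zfp36l1: cgTATTTATtgccaaactatgctttttttg
Zfp36l2: ctTATTTATtatcttgtgaaaagtatacat
Socs3: taTATTTATATTTATactcagaaaagaaac
In Socs3 the 2 matches share a base, and in Zfp36 the 2 matches in this stretch are separated by other letters.

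Promoters were available for 8 of the 10 genes, from RefSeq on GRCm38.p6, as 300 bases from 250 before to 50 after the start of transcription. They were searched on both strands for the AP-1 site TGANTCA, the cAMP response element TGACGTCA, the STAT site TTCNNNGAA, the EGR site GCGNGGGCG, the TATA box TATAAA, and the CArG box and the NF-kB site by their usual degenerate forms. The 250 bases before the start are printed for Dusp1, Dusp2, Zfp36 and Socs3, the 4 genes whose KO microglia all lay below the WT microglia, with the matches in capitals. They lie at chr17:26508473-26508722 (minus strand), chr2:127335909-127336158 (plus), chr7:28379229-28379478 (minus) and chr11:117969367-117969616 (minus). For Dusp1, Zfp36 and Socs3 they fall inside the GENCODE gene span given below, so motif positions count from the RefSeq start only. In Zfp36 all 3470 bases of that span are annotated as exonic.
Dusp1: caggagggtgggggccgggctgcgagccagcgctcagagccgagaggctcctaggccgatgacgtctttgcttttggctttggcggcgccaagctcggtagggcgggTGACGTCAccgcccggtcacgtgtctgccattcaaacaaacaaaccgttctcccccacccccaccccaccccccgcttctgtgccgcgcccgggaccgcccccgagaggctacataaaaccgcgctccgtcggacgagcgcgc
Dusp2: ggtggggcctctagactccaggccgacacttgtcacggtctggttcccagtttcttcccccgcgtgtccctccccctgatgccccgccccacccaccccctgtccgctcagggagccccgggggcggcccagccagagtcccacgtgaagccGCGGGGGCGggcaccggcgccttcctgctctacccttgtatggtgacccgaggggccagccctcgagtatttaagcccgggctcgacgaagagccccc
Zfp36: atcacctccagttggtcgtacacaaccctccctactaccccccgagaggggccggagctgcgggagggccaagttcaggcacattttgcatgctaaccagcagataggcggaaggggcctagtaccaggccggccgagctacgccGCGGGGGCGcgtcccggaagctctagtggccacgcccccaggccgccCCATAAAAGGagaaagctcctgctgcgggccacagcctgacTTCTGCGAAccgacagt
Socs3: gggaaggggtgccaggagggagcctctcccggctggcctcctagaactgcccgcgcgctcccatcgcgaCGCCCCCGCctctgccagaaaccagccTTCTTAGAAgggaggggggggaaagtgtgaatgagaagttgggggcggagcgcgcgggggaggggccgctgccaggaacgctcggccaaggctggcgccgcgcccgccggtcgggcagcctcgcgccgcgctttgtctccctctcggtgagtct
The Dusp1 promoter holds a cAMP response element that begins at -143 from the start, a motif found in 1.88% of the 27025 promoters of the table. Zfp36 holds an EGR site at -105, a CArG box at -58 (in 1.57% of promoters), the motif of serum response factor, and a STAT site at -17 (8.47%). Socs3 holds a STAT site at -154 and an EGR site at -181, and Dusp2 an EGR site at -98, a motif in 5.55% of promoters. Of the other 4 promoters, that of Dusp5 holds 2 CArG boxes at -82 and -72, that of Zfp36l1 an AP-1 site (7.93% of promoters) at -129 and a TATA box (14.2%) at -29, and those of Dusp6 and Dusp10 none of the motifs. The NF-kB site, present in 4.35% of promoters, was found in 0 of the 8. No motif is shared by all 4 printed promoters.

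The median span of the 10 genes was 4759.5 bases, against 17364 for all protein-coding genes. Dusp2 (chr2:127336159-127338376, plus strand) spans 2218 bases, Zfp36 (chr7:28376784-28380253, minus) 3470 and Socs3 (chr11:117966079-117970047, minus) 3969. Dusp1 (chr17:26505590-26562128, minus) spans 56539 bases in this annotation and its longest coding transcript is 1990 bases. The median of the 10 was 3.5 exons in the longest coding transcript, against 7 for the 21866 protein-coding genes. Some overlap other annotated genes on the opposite strand, such as Ergic1 for Dusp1 and a long noncoding RNA for Zfp36l1, but none shares an exonic base with an overlapping gene. Ergic1 was at 28.2 to 32.8 FPKM in WT and 40.4 to 56.6 in KO microglia, the opposite order to Dusp1.

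Of the 10 genes, 7 were expressed higher in WT microglia than in WT astrocytes, and none lower, by limma on log2(FPKM + 1) with Benjamini-Hochberg adjustment over all genes tested, at an adjusted p under 0.05. Of all 16260 genes, 29.1% passed in that direction. Zfp36 was the most abundant of the set in microglia and differed most between the cell types on the log2(FPKM + 1) scale, where low values count for less. Its level was 2309, 1825 and 2737 FPKM in the 3 WT microglia libraries, and 8.76, 12.6 and 10.4 FPKM in the 3 WT astrocyte libraries. The group means differed 217-fold, a difference of 7.57 on the log2 scale (SE 0.25, adjusted p = 6.50e-09). Socs3 stood at 68.5, 58.2 and 77.6 FPKM in WT microglia and at 0.871, 1.77 and 1.96 in WT astrocytes (difference 4.90, SE 0.21, adjusted p = 2.77e-08). Dusp1 was at 868, 491 and 628 FPKM in WT microglia and at 30.4, 26.8 and 18.6 in WT astrocytes (difference 4.57, SE 0.25, adjusted p = 1.16e-07). For Dusp2, a phosphatase known from activated immune cells, WT microglia were at 32.6, 24.3 and 23.2 FPKM, while WT astrocytes were listed at 0, 0.0794 and 0.130 (difference 4.74, SE 0.24, adjusted p = 8.62e-08). For these 4 genes the microglia and astrocyte libraries did not overlap. With a pseudocount of 0.1 in place of 1 the Dusp2 difference was 7.72.

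The remaining decay factors and the ERK phosphatase Dusp6 were expressed in both cell types. Zfp36l1 was 2.74-fold higher in WT microglia (321 ± 48.4 FPKM, SD, n = 3) than in WT astrocytes (117 ± 61.9, n = 3), a log2 difference of 1.85 (SE 0.34, adjusted p = 0.000978). Zfp36l2 was 2.49-fold higher (88.8 ± 9.83 against 35.7 ± 8.30 FPKM, difference 1.36, SE 0.20, adjusted p = 0.000200). Dusp6 was 3.16-fold higher (62.1 ± 18.2 against 19.6 ± 8.18 FPKM, difference 1.53, SE 0.33, adjusted p = 0.00279). Dusp4, Dusp5 and Dusp10 were low in both and did not pass, with differences of 0.55 [-0.65 to 1.75], 0.25 [-0.65 to 1.15] and 0.48 [-0.52 to 1.49] and their 95% intervals. The median gene was itself 0.21 higher in microglia as deposited, -0.06 after quantile normalisation and 0.43 after median-ratio rescaling, and 54.3%, 43.3% and 60.4% of the genes that passed were higher in microglia under the respective scaling. Relative to the deposited median, the 7 differences ran from 1.15 (Zfp36l2) to 7.36 (Zfp36). All 7 passed in each of the 19 alternative settings tried. Across all 13 libraries, the same 7 genes had every microglia library above every astrocyte library, against 23.4% of all genes tested.

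**Figure D1:**
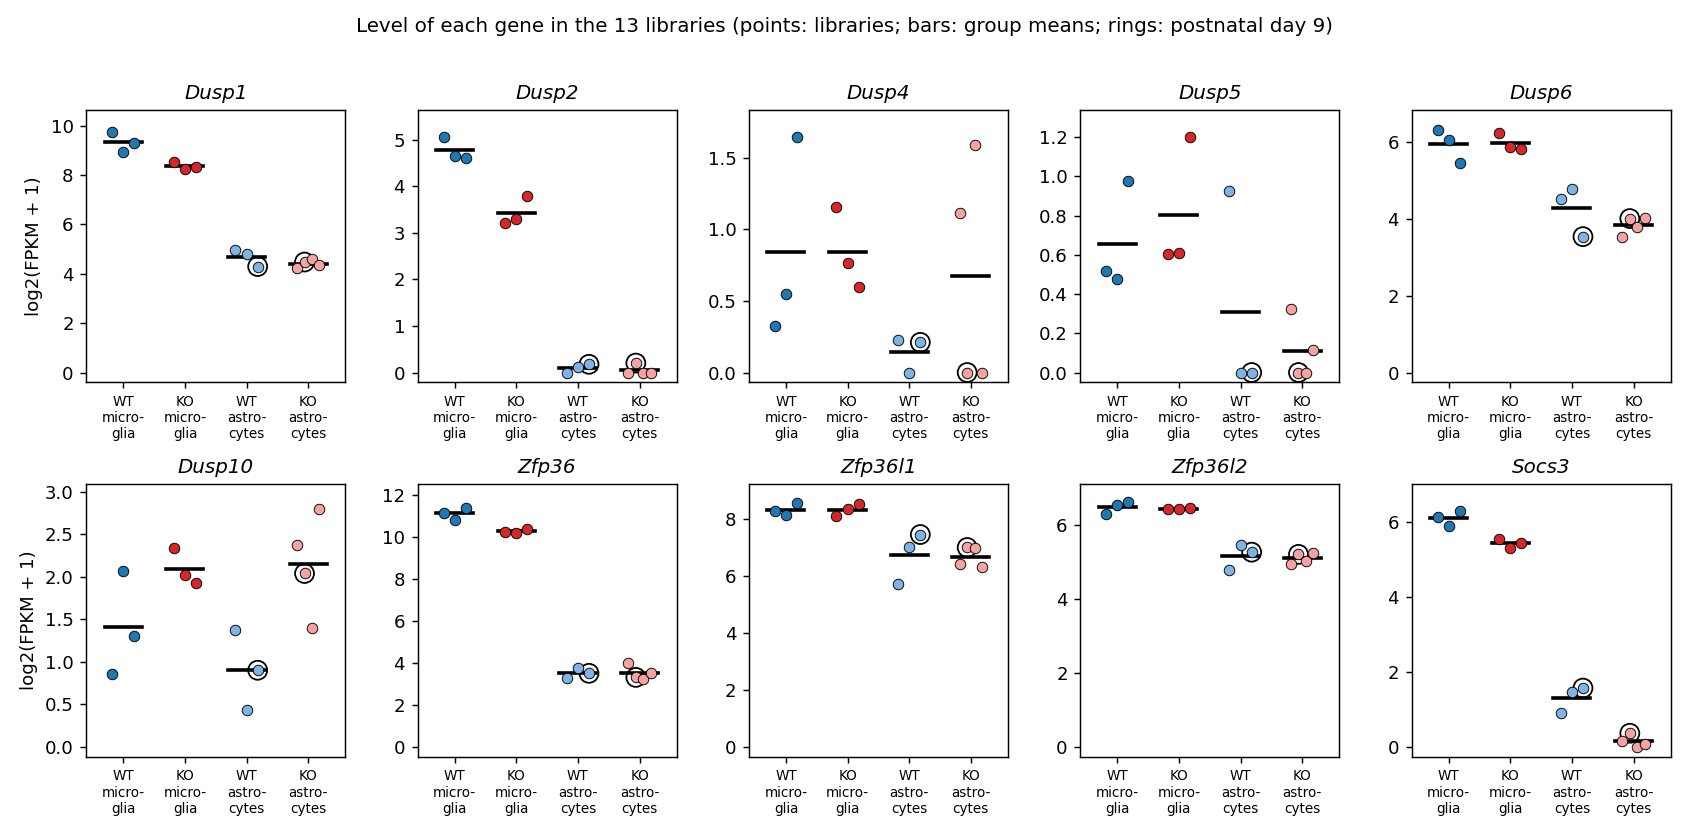
Level of each of the 10 genes on a log2(FPKM + 1) axis, 1 panel a gene with its own scale, in the 3 WT and 3 KO microglia and the 3 WT and 4 KO astrocyte libraries. Points are libraries, horizontal bars are group means and rings mark the postnatal day 9 libraries. In Dusp1, Dusp2, Zfp36 and Socs3 the KO microglia lie below the WT microglia without overlap, and for Socs3 the KO astrocytes also lie below the WT astrocytes.

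The order of the levels differed between the cell types. In WT microglia it ran Zfp36, Dusp1, Zfp36l1, Zfp36l2, Socs3, Dusp6, Dusp2 and Dusp10, then Dusp4 and Dusp5. Socs3 (58.2 to 77.6 FPKM) and Dusp6 (42.4 to 78.2) overlapped, as did Dusp10, Dusp4 and Dusp5. In KO microglia Dusp1 (305 to 366 FPKM) and Zfp36l1 (271 to 363) overlapped as well, and Dusp6 (55.2 to 74.2) lay above Socs3 (38.2 to 45.4). In astrocytes of both genotypes Zfp36l1 led, followed by Zfp36l2, Dusp1, Dusp6 and Zfp36. There, Zfp36l1 (51.0 to 174 FPKM in WT, 78.2 to 126 in KO) was above Zfp36l2 in every library. Dusp6 and Zfp36 overlapped in both genotypes, and in WT astrocytes Dusp1 (18.6 to 30.4) overlapped both Zfp36l2 (26.7 to 43.0) and Dusp6 (10.6 to 26.5). Socs3, Dusp10, Dusp4, Dusp5 and Dusp2 were under 2 FPKM in every WT astrocyte library. FPKM is per length of gene model, so the order of different genes, and shares among them, are only as exact as those lengths.

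Each cell type had its own leading gene among the 3 listed members of the Zfp36 family. Zfp36 held 84.7% of the summed FPKM of these 3 genes in WT microglia (83.1% to 85.6% over libraries) and 7.24% in WT astrocytes (4.68% to 10.1%), where Zfp36l1 held 69.0%. In KO microglia Zfp36 held 75.6% (74.6% to 77.3%), below every WT microglia library. That lower share largely repeats the Zfp36 difference given below, as Zfp36l1 and Zfp36l2 hardly differed by genotype. KO astrocytes, with 7.63% for Zfp36 (5.09% to 11.8%) and 69.3% for Zfp36l1, overlapped the WT astrocytes. Among the 6 phosphatases Dusp1 held 87.5% of the summed FPKM in WT microglia (83.9% to 89.9%) and 81.1% in KO microglia (80.6% to 81.4%). In astrocytes the phosphatase sum was shared mainly between Dusp1 (55.5% in WT, 53.1% in KO) and Dusp6 (41.3% and 34.7%).

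**Figure D2:**
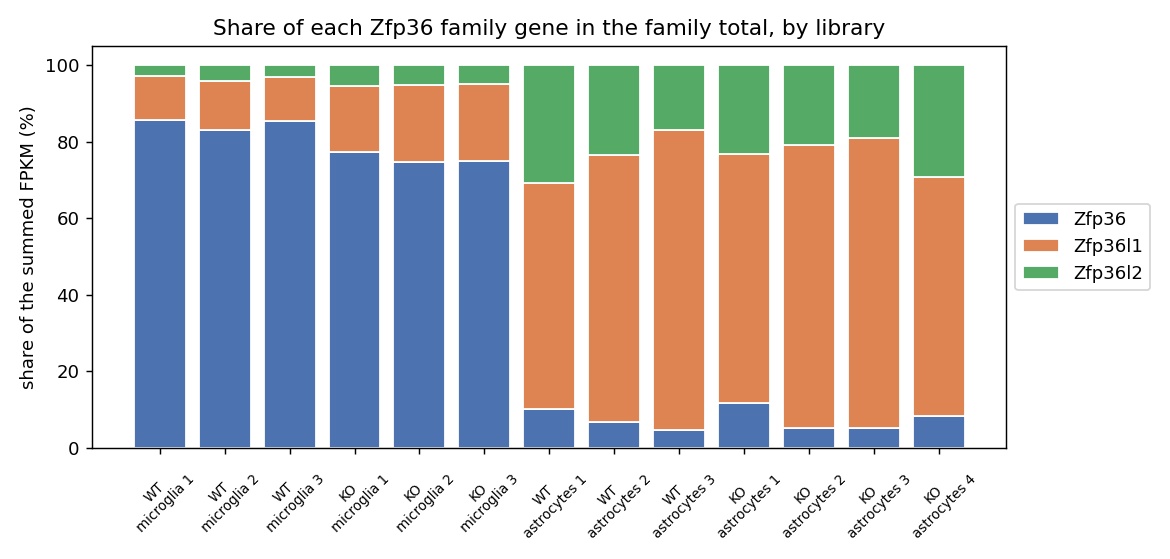
Share of Zfp36, Zfp36l1 and Zfp36l2 in the summed FPKM of these 3 genes (%), 1 stacked bar for each of the 13 libraries. Zfp36 takes 74.6% to 85.6% in the 6 microglia libraries and 4.68% to 11.8% in the 7 astrocyte libraries.

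Dusp1, Dusp2, Zfp36 and Socs3 had every KO microglia library below every WT one, but none of the 10 genes passed the genotype test in microglia. Across the 15891 genes tested, 0.0818% passed in either direction, so the test called 13 genes in all. By the same limma fit 4 of the 10 had an unadjusted p under 0.05 with the KO lower, against 3.67% of all genes, and the same 4 had no overlap with the KO lower, against 7.48%. Dusp2 was at 8.33, 8.77 and 12.8 FPKM in KO microglia, and its WT mean was 2.68-fold higher (difference -1.34, SE 0.23, unadjusted p = 0.00127, adjusted p = 0.331). Dusp1 was at 366, 305 and 317 FPKM in KO microglia (329 ± 32.1), with the WT mean 2.01-fold higher (difference -0.97, SE 0.24, unadjusted p = 0.00689, adjusted p = 0.516). The lowest WT library of Dusp1, 491 FPKM, lay well above the highest KO library. The exact two-sided permutation test gave p = 0.1 for each of the 4 genes, the smallest that 3 against 3 libraries allow.

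The other phosphatases did not separate by genotype in microglia. Dusp6 was at 78.2, 65.7 and 42.4 FPKM in WT and 74.2, 57.2 and 55.2 in KO microglia, a difference of 0.03 with a 95% interval of -0.63 to 0.69. Dusp10 had the opposite sign, at 0.808, 3.20 and 1.47 FPKM in WT and 4.06, 3.05 and 2.80 in KO microglia, with overlap (difference 0.68, SE 0.37, adjusted p = 0.658). Dusp4 (0.254 to 2.13 FPKM in WT, 0.512 to 1.23 in KO) and Dusp5 (0.391 to 0.965 and 0.519 to 1.30) had a mean under 1 FPKM over the microglia and entered the test only as listed genes. Within a library, the ratio of Dusp1 to Dusp6 was 11.1 ± 3.67 in WT and 5.34 ± 0.410 in KO microglia (n = 3 each, no overlap, exact permutation p = 0.1). As Dusp6 hardly differed by genotype, this ratio largely repeats the Dusp1 difference and is no separate result.

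Of the decay factors only Zfp36 separated. It was at 1208, 1199 and 1347 FPKM in KO microglia (1252 ± 82.7) against a WT mean of 2290.4 ± 456, 1.83-fold higher (difference -0.85, SE 0.20, unadjusted p = 0.00495, adjusted p = 0.490). After quantile normalisation this difference was -0.54 (adjusted p = 0.550). Zfp36l1 stood at 310, 280 and 374 FPKM in WT and 271, 322 and 363 in KO microglia, a difference of -0.01 with a 95% interval of -0.47 to 0.45. Zfp36l2 stood at 77.8, 91.9 and 96.7 FPKM in WT and 84.8, 85.4 and 86.6 in KO microglia, with a difference of -0.05 and an interval of -0.40 to 0.31. Both carry as many of the heptamers as Zfp36, in longer untranslated regions (1835 and 1822 bases against 774). Whether the heptamers bear on these differences was not tested. Within a library, Zfp36 exceeded Zfp36l1 7.10 ± 0.498 times in WT and 3.96 ± 0.431 times in KO microglia (n = 3 each, no overlap, exact permutation p = 0.1). This too largely repeats the Zfp36 difference, since Zfp36l1 hardly differed by genotype.

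Socs3 was at 45.4, 38.2 and 42.7 FPKM in KO microglia (42.1 ± 3.65), with the WT mean of 68.1 ± 9.69 being 1.62-fold higher (difference -0.67, SE 0.17, unadjusted p = 0.00726, adjusted p = 0.518). The ratio of Socs3 to Zfp36 within a library, 0.0300 ± 0.00179 in WT and 0.0337 ± 0.00334 in KO microglia, overlapped (exact permutation p = 0.3). The ratio of Dusp1 to Zfp36 overlapped too, at 0.291 ± 0.0758 and 0.264 ± 0.0347 (exact permutation p = 0.7). The same held for Dusp1 to Dusp2, at 24.6 ± 3.83 and 34.5 ± 9.54 (exact permutation p = 0.3). Dusp2 to Zfp36 also overlapped, at 0.00848 to 0.0141 in WT and 0.00690 to 0.00949 in KO (exact permutation p = 0.2). The other 2 of the 6 ratios among the 4 genes did not overlap (exact permutation p = 0.1 each). Socs3 to Dusp1 was at 0.0790 to 0.1235 in WT and 0.1241 to 0.135 in KO microglia, and Socs3 to Dusp2 at 2.10 to 3.341 and 3.345 to 5.45, so in both the groups are barely apart.

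**Figure D3:**
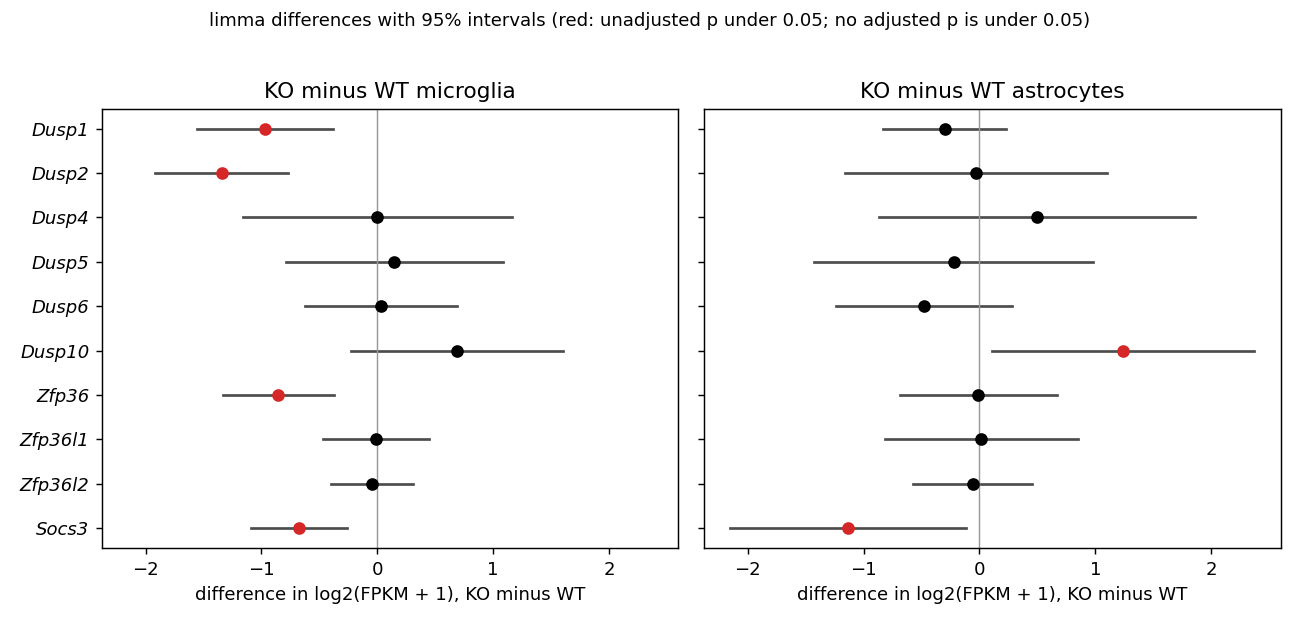
KO minus WT difference in log2(FPKM + 1) for the 10 genes in microglia (left, 3 against 3 libraries) and astrocytes (right, 4 against 3, with age as a covariate), with limma's 95% intervals. Red points have an unadjusted p under 0.05, and no gene passes after adjustment over all genes. In microglia the red points are Dusp1, Dusp2, Zfp36 and Socs3, all below 0, and in astrocytes they are Socs3 below 0 and Dusp10 above it.

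The authors' deposited table for microglia works on normalised counts and lists only genes with an adjusted p under 0.05. It holds 483 genes, where the expression table has 39171, and the number the authors tested is not given. The same 4 genes are among the 483 and none of the other 6 is. In the authors' deposited table Dusp2 averages 1077 normalised counts over WT microglia and 405 over KO microglia (log2 of WT over KO 1.20 after shrinkage, adjusted p = 0.000725). In the authors' deposited table Zfp36 has 120575 and 70760.2 (log2 0.68, adjusted p = 0.00437) and Dusp1 has 32805 and 15532 (log2 0.93, adjusted p = 0.00509). Socs3 has 4816 and 3266 in the authors' deposited table (log2 0.49, adjusted p = 0.0319). These tests rest on the same libraries as the FPKM and are not independent of them, and the astrocyte table, with 10 genes, lists none of the 10.

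Other measures moved with genotype in the microglia libraries. The summed level of 16 immediate-early genes (Fos, Egr1, Junb and others) was 2118 to 2785 FPKM in WT and 1472 to 1790 in KO microglia, without overlap, while 10 heat-shock genes went the other way, at 600.5 to 666 and 700 to 756. The 10 oligodendrocyte markers summed to 1079 to 1829 FPKM in WT and 1626 to 2666 in KO microglia, and 7 of the 10 had an unadjusted p under 0.05 with the KO higher, against 4.29% of all genes. The 10 neuron markers, most of them too low to test, summed to 10.6 to 58.6 FPKM in WT and 5.38 to 6.37 in KO, without overlap. Neutrophil markers summed to 352 to 551 FPKM in WT and 310 to 394 in KO. Of the 7 tested, 2 had an unadjusted p under 0.05 with the KO lower, against 3.67% of all genes. Of these 10 markers only 1, Ly6g, was listed at 0 in every microglia library. Border macrophage markers summed to 853 to 1760 and 780 to 883 FPKM (1 of 10, KO lower), and monocyte markers to 20.4 to 112 and 18.1 to 32.4 (2 of 6, KO lower). Microglia markers overlapped in their sum, at 9259 to 10061 and 9686 to 10165 FPKM (0 of 10), as did astrocyte markers (71.4 to 102 and 72.2 to 113) and endothelial and mural markers (23.4 to 35.5 and 23.1 to 32.2). Singly, 3 of the 10 microglia markers had no overlap with the KO lower and 0 with the KO higher. Border macrophage markers gave the same counts, against 7.48% of all genes lower and 8.41% higher. No gene of these lists passed the limma test after adjustment. The authors' deposited table lists Junb, Jun, Snap25, Slc6a5, S100a8, Ccr2 and Kcnj8 among them as higher in WT, and Egr3, Mag, Cldn11 and Gfap as higher in KO. Their part in the differences of the 4 genes was not tested. Xist, expressed from the inactive X chromosome of females, was at 268 and 283 FPKM in WT microglia 1 and 2, at 0.713 in WT microglia 3 and at 0.376 or less in the KO microglia. WT microglia 3, alike to the KO libraries in Xist, had Dusp1 at 628, Dusp2 at 23.2, Zfp36 at 2737 and Socs3 at 77.6 FPKM, each above every KO library. By Xist, sex is partly confounded with genotype, and the labels do not give it. The most abundant gene took 11.6% of the summed FPKM in WT microglia 3, against 23.7% to 32.5% in the other microglia libraries. With the Xist level as a covariate, mainly WT microglia 3 is set against the KO libraries. The differences were then -0.93 (Dusp1), -1.17 (Dusp2), -1.16 (Zfp36) and -0.89 (Socs3), with limma adjusted p of 0.114 to 0.282. The part of sex in these differences was not tested.

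In astrocytes none of the 10 genes passed for genotype, and 0.0224% of the 13401 genes tested did. Of the 10, 2 had groups without overlap, against 4.69% of all genes. Socs3 was the lower of them, at 0.871, 1.77 and 1.96 FPKM in WT and at 0.122, 0.284, 0 and 0.0583 in KO astrocytes. All 7 values are low and the mean over the astrocytes is under 1 FPKM, so it entered the test only as a listed gene (difference -1.13, SE 0.43, unadjusted p = 0.0336, adjusted p = 0.921). The exact two-sided permutation test gave p = 0.0286, the smallest that 4 against 3 libraries allow. That test takes no account of age or of the number of genes tested. On log2(FPKM + 0.1) the Socs3 difference was -2.93 (adjusted p = 0.927). Dusp10 was the higher, at 1.58, 0.353 and 0.865 FPKM in WT and at 4.17, 3.10, 1.64 and 5.94 in KO astrocytes (difference 1.24, SE 0.48, unadjusted p = 0.0355, adjusted p = 0.921, exact permutation p = 0.0571). On log2(FPKM + 0.1) the Dusp10 difference was 1.94 (adjusted p = 0.927). The gap for Dusp10 between the highest WT library, 1.58, and the lowest KO library, 1.64 FPKM, is small.

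The other astrocyte values overlapped between genotypes. Dusp1 was at 17.7, 21.3, 23.1 and 19.2 FPKM in KO astrocytes (20.3 ± 2.33, WT 25.3 ± 6.03; difference -0.30, 95% interval -0.83 to 0.23). Zfp36 was at 15.2, 8.94, 8.40 and 10.5 FPKM in KO astrocytes (10.8 ± 3.10, WT 10.6 ± 1.92; difference -0.01, interval -0.69 to 0.67). Zfp36l1 (103 ± 26.0 in KO, 117 ± 61.9 in WT), Zfp36l2 (33.5 ± 3.25 and 35.7 ± 8.30) and Dusp6 (13.4 ± 2.23 and 19.6 ± 8.18) had differences of 0.02, -0.06 and -0.48 with adjusted p of 0.921 to 0.999. Dusp2 was listed at 0 in 3 of the 4 KO astrocyte libraries, and Dusp4 and Dusp5 at 0 in 2 each, with highest values of 2.01 and 0.251 FPKM. For age, none of the 10 passed between day 12 and day 9 astrocytes by limma, where 0.097% of all genes passed. None of the 10 had an unadjusted p under 0.05, against 8.62% of all genes. The largest age difference was in Zfp36l1, which was at 174 and 126 FPKM in the 2 day 9 libraries and at 51.0 to 127 on day 12 (difference -0.74, SE 0.39, limma adjusted p = 0.675).

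Whether the genotype difference itself differed between the cell types was tested as an interaction over all 13 libraries. None of the 10 genes passed by limma, where 0.141% of the 16260 genes passed. With the KO effect lower in microglia, 2 of the 10 had an unadjusted p under 0.05, against 2.69% of all genes. Dusp2 came nearest (-1.31, SE 0.32, unadjusted p = 0.00177, adjusted p = 0.384), followed by Zfp36 (-0.84, SE 0.32, unadjusted p = 0.0246, adjusted p = 0.726) and Dusp1 (-0.67, SE 0.32, adjusted p = 0.762). In astrocytes Dusp2 was at 0 to 0.151 FPKM, so a genotype difference there could hardly show on the log2(FPKM + 1) scale. Its interaction therefore nearly repeats the microglia difference of -1.34 and cannot tell whether the cell types differ. For Socs3, lower in KO libraries of both cell types, the interaction was 0.46 (SE 0.28, adjusted p = 0.809). Socs3 was also near the floor in KO astrocytes, at 0 to 0.284 FPKM. Over the 19 alternatives its interaction ran from 0.30 to 2.25, so its size is not settled.

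The summed microglia markers in astrocytes were 0.445% of their microglia level in WT and 0.594% in KO, with single markers at 0.117% to 1.22% in WT and 0.285% to 0.898% in KO. Zfp36 stood inside those ranges in astrocytes, at 0.462% (WT) and 0.861% (KO) of its microglia level. So did Dusp2, at 0.262% and 0.379%, although some of its astrocyte libraries were listed at 0, and Socs3 in KO astrocytes, with 1 library at 0, was at 0.276%. Socs3 in WT astrocytes, at 2.25%, and Dusp1, at 3.82% in WT and 6.17% in KO, were above all 10 markers. Dusp6, at 31.6% and 21.5%, Zfp36l1, at 36.5% and 32.4%, and Zfp36l2, at 40.2% and 39.1%, were far above them. How far microglial RNA enters these astrocyte values was not tested.

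**Figure D4:**
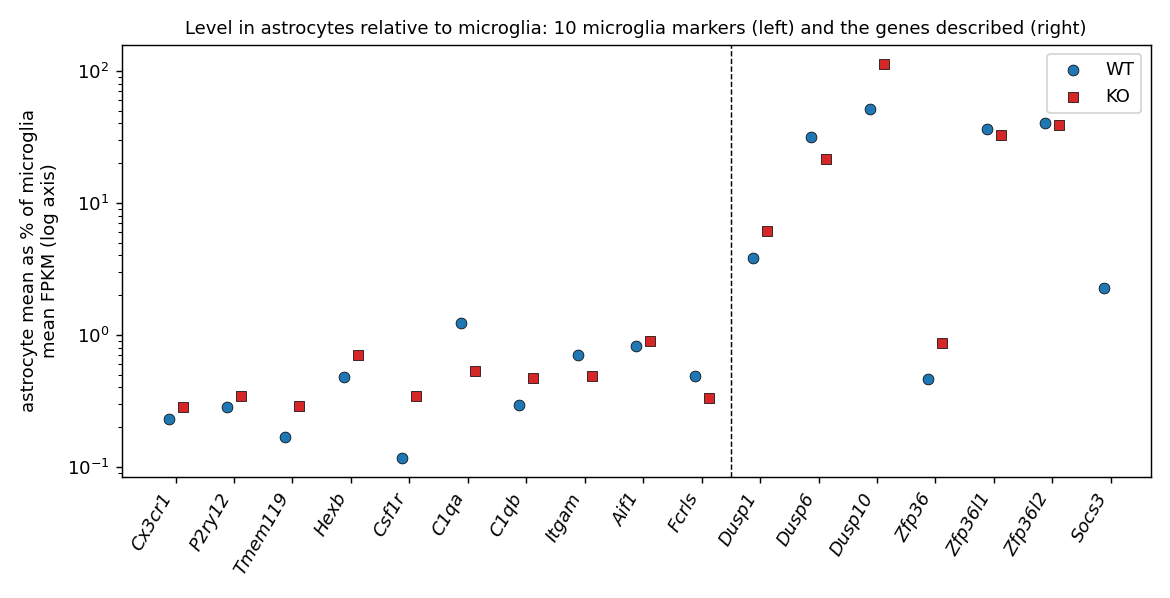
Mean FPKM in astrocytes as a percentage of the mean in microglia of the same genotype (log axis), for 10 microglia markers left of the dashed line and the genes described right of it. Blue circles are WT, red squares are KO, and a gene is left out where an astrocyte library of that genotype was listed at 0. Zfp36, at 0.462% and 0.861%, lies among the markers, while Zfp36l1 and Zfp36l2 lie at 32.4% to 40.2%.

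The kinases and the decay machinery on which these genes act held no gene that passed by genotype in microglia. In the 9 pathway lists 0 of the tested members passed, all with limma and the Benjamini-Hochberg adjustment over all genes, and the median gene differed by 0.02. Of all 15891 genes tested only 0.0818% passed, so a count of 0 in such lists says little about them. Other dual-specificity phosphatases (12 tested) had a median difference of 0.27, MAP kinases (9) of 0.08, MAP kinase kinases and p38 effectors (13) of 0.00, and the Sprouty and Spred feedback genes (7) of 0.17, with 0 members at an unadjusted p under 0.05 in each and none in the authors' deposited table. Mapk14, which encodes p38 alpha, was at 55.8 ± 7.56 FPKM in WT and 60.8 ± 7.92 in KO microglia. Mapk3, which encodes an ERK kinase, averaged 246 ± 93.2 FPKM over the WT and 247 ± 27.5 over the KO libraries. The deadenylation and decapping machinery (19 tested, median 0.16) and the other AU-rich element and stem-loop binders (11, median 0.10) likewise had 0 members at an unadjusted p under 0.05. Cnot1, the scaffold of the deadenylase complex that Zfp36 recruits, was at 22.5 ± 2.16 and 26.0 ± 0.842 FPKM. Among the other SOCS genes (5 tested, median 0.27), Cish, a STAT5-induced relative of Socs3, had a mean under 1 FPKM and was not tested by limma, at 0.198 to 1.41 FPKM in WT and 0.0432 to 0.166 in KO microglia. The authors' deposited table does list Cish, with 147 normalised counts in WT and 10.7 in KO (adjusted p = 0.00188). In the gp130 and STAT3 pathway (13 tested, median 0.01) 1 member had an unadjusted p under 0.05 in each direction. Of all genes, 3.67% did with the KO lower and 4.29% with the KO higher. Stat3 was at 52.5 ± 8.72 and 61.6 ± 1.50 FPKM. Of that pathway the authors' deposited table lists Il10rb, as higher in WT (adjusted p = 0.0105).

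Of the messages known for AU-rich elements, 0 of 15 tested passed by limma in microglia, where 0.0818% of all genes did. Among them 6 had an unadjusted p under 0.05 with the KO lower (3.67% of all genes did) and 0 with the KO higher (4.29%). The groups had no overlap with the KO lower for 7 (7.48% of all genes) and with the KO higher for 1 (8.41%), and the median difference was -0.59. The authors' deposited table lists 4 of the 19 messages, against 483 of the 39171 genes in the expression table. The 4 are Tnf, Cxcl2, Ier3 and Cxcl1, all higher in WT. Tnf, the classic target of Zfp36, was at 66.6 ± 24.4 FPKM in WT and 22.4 ± 4.08 in KO microglia (difference -1.47, SE 0.31, adjusted p = 0.441). Il1b was at 12.3 ± 4.42 and 6.60 ± 0.992 FPKM and the chemokine gene Cxcl2 at 29.1 ± 8.55 and 6.54 ± 1.76 (difference -1.98, SE 0.28, adjusted p = 0.208). Of the 16 immediate-early genes, 4 had an unadjusted p under 0.05 with the KO lower and 1 with the KO higher, with a median of -0.39. The authors' deposited table, with its 483 of 39171 genes, lists 3 of them, Junb and Jun as higher in WT and Egr3 as higher in KO. Junb was at 239 ± 32.6 FPKM in WT and 115 ± 11.1 in KO microglia (difference -1.04, SE 0.17, adjusted p = 0.293), while Fos (93.9 ± 25.5 and 64.5 ± 5.34) and Egr1 (671 ± 131 and 470 ± 111) had adjusted p of 0.612 and 0.615. These lists were drawn up with earlier results of these libraries known, so their direction is not independent evidence.

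The same lists were counted between WT microglia and WT astrocytes. The AU-rich messages were higher in microglia for 13 of 14 tested and lower for 1, and the immediate-early genes for 14 of 16 and 0, against the 29.1% of all genes. Tnf was at 66.6 FPKM in WT microglia and at 0.0493 to 0.153 in WT astrocytes (difference 5.89, adjusted p = 5.30e-08). The Sprouty and Spred feedback genes, which restrain receptor signalling to ERK, had 6 of 9 lower in microglia and 0 higher, against 24.5% of all genes lower. Spry2 was at 1.29 ± 0.354 FPKM in WT microglia and 77.1 ± 6.38 in WT astrocytes (difference -5.13, SE 0.19, adjusted p = 1.14e-08), and Spry4 at 0.643 ± 0.510 and 9.08 ± 3.58. Of the other dual-specificity phosphatases 2 of 13 were higher and 3 lower, of the MAP kinases 1 and 2 of 9, of the kinases above them and p38 effectors 3 and 0 of 13, of the decay machinery 6 and 2 of 19, of the other AU-rich element binders 4 and 1 of 11, of the other SOCS genes 1 and 2 of 5, and of the gp130 and STAT3 pathway 8 and 2 of 14, several of them near the 29.1% and 24.5% of all genes. Mapk14 was among the higher, at 55.8 ± 7.56 FPKM in WT microglia and 10.2 ± 2.76 in WT astrocytes (difference 2.49, SE 0.29, limma adjusted p = 4.11e-05), as was the interleukin-6 receptor gene Il6ra, at 128 ± 4.62 and 0.250 ± 0.178 FPKM. In astrocytes by genotype 0 tested members passed in any of these lists, where 0.0224% of all genes did.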

How the data were processed

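Sorted spinal cord cells gave total RNA, which was turned into NuGEN RNA-Seq V2 libraries, per the labels' protocols. The build was GRCm38, and Cufflinks, Cuffnorm, DESeq2, HTSeq 0.6.1p1, Bowtie2 2.2.3, TopHat2 2.0.11 and FastQC are named, per the submitters' processing notes. No source used here gives the settings or the strandedness. The table of FPKM that the authors deposited holds 39171 genes and 13 libraries. A second deposited table for each cell type gives, per the file headers, the signal (mean normalised counts) of each genotype, the log2 fold change of WT over KO and its p-value, raw and adjusted.

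Groups came from the labels. The test of differences was limma's (version 3.58.1, R 4.3.3, trend, two-sided) on log2(FPKM + 1), which understates changes of low genes, over genes with a mean of at least 1 FPKM in the fitted libraries plus the 10 genes in any case. Benjamini-Hochberg adjustment ran over all genes tested, with a threshold of 0.05. Microglia were fitted alone, astrocytes alone with age as a covariate, and the cell type and interaction contrasts in 1 fit of 13 libraries with age. The script was tested on simulated data. Exact two-sided permutation tests used scipy 1.17.1, without covariates and without adjustment for the number of tests. Coordinates and untranslated regions came from GENCODE release 21 and promoters from RefSeq.

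The 10 genes were all named; of each of the 19 other lists the first 3 genes could be named, and any that passed (up to 4). The 10 genes and the lists were chosen with earlier results of these data known. Alternatives covered the pseudocount, the filter, the scaling, each library left out, the replicate block, age, Xist and the set of libraries fitted.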

Additional observations from a re-analysis of the deposited data

Results flagged for a closer look

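Dusp2 in KO astrocytes had 1 library apart from the other 3. KO astrocytes replicate 2, from postnatal day 9, was at 0.151 FPKM and the other 3 were listed at 0, so the gap to the nearest library took up the whole range (a ratio of 1.0). With 3 values at 0 the ratio is 1.0 whenever the other is above 0. The cause was not tested.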

How the results depend on the processing

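No call among the 10 genes moved in any setting: 7 passed between WT cell types under each of the 19 alternatives, and 0 passed for genotype in microglia (14 alternatives), in astrocytes (16), for age (12) or for the interaction (19). The lowest limma adjusted p of the genotype comparisons was 0.0573, for Dusp2 in microglia taken from the fit of all 13 libraries. Dusp1 (-1.17 to -0.76), Dusp2 (-1.52 to -1.17), Zfp36 (-1.16 to -0.54) and Socs3 (-0.89 to -0.58) kept their sign in microglia throughout. The depth in reads is unknown, so no counting interval is given.

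Counts over all genes moved more. For genotype in microglia 13 genes passed, against 25 with a pseudocount of 0.1, 7 with no filter, 37 from the fit of all 13 libraries, 258 with Xist as a covariate and 18 to 48 with 1 library left out (27 without WT microglia 3, 48, 23 and 32 without KO microglia 1, 2 and 3). In astrocytes 3 passed, against 5 with a pseudocount of 0.1, 0 with no filter, 7 from the fit of all 13, 0 with day 12 libraries only and 0 to 8 with 1 left out (1, 8 and 0 without WT astrocytes 1, 2 and 3, and 6, 0 and 6 without KO astrocytes 1, 2 and 4). For age 13 passed, against 7 with a pseudocount of 0.1, 35 with no filter, 8 with a filter of 5 FPKM and 6 to 82 with 1 left out (6 and 82 without WT astrocytes 2 and 3, 63 without KO astrocytes 2). For the interaction 23 passed, against 37 with no filter, 13 with a filter of 5 FPKM and 15 to 75 with 1 left out (15 without WT astrocytes 2, and 35 to 75 without any 1 microglia library). The cause was not tested. Between WT cell types 8716 genes passed and no alternative moved this by over 1.5 times.

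Same-numbered KO and WT libraries hardly deviated together (correlations 0.028, 0.0099 and 0.023 in microglia, and 0.021, -0.078 and -0.017 in astrocytes). Each microglia library still correlated best with its own number. Values this small cannot settle whether the numbers pair the samples, and the main fit did not pair them. With a replicate block 3 genes passed in microglia and 0 in astrocytes, and Zfp36 in astrocytes was 0.0015.

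Signs turned only for differences that did not pass. In microglia by genotype these were Dusp4 (0.19 with a pseudocount of 0.1; -0.26 to 0.40 leaving out 1 library), Dusp5 (-0.21 with Xist, -0.11 after quantile normalisation; -0.051 to 0.31), Dusp6 (-0.22 to 0.22), Zfp36l1 (0.17 after quantile normalisation; -0.11 to 0.11) and Zfp36l2 (0.056 after quantile normalisation; -0.14 to 0.017). In astrocytes by genotype they were Zfp36 (0.022 after median-ratio rescaling, 0.015 after quantile normalisation, 0.0033 without age, 0.067 with day 12 only; -0.18 to 0.11 leaving out 1 library), Zfp36l1 (-0.045 without age; -0.44 to 0.34), Dusp2 (-0.056 to 0.010), Dusp5 (-0.47 to 0.087) and Zfp36l2 (-0.26 to 0.14). By age they were Dusp2 (0.048 after quantile normalisation), Dusp1 (-0.092 to 0.59), Dusp4 (-0.10 to 0.90), Dusp6 (-0.24 to 1.11) and Dusp10 (-0.094 to 0.28). Between WT cell types quantile normalisation gave -0.0063 for Dusp4, -0.25 for Dusp5 and -0.35 for Dusp10, and leaving out 1 library gave -0.035 to 0.61 for Dusp5. For the interaction they were Zfp36l1 (0.034 without age, 0.13 after quantile normalisation; -0.35 to 0.43) and Zfp36l2 (-0.063 after median-ratio rescaling; -0.19 to 0.21).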

Other observations

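The genes whose pattern over the 13 libraries was most like that of each of the 10 were sought among 8709 protein-coding genes with a mean of at least 5 FPKM, by Pearson correlation of log2(FPKM + 1). All 13 points share the contrast between microglia and astrocytes, which sets most of each coefficient. Dusp1 and Dusp2 were both most like Tnf (0.995 and 0.997), followed by Stfa1 and, for Dusp1, S100a8 (0.994), and for Dusp2, Nfkbiz (0.996). Zfp36 was most like Bcl2a1b (0.998), Neurl3 and Cd83, and Socs3 most like Jun (0.994), Ccl12 and Arap3. Zfp36l1 and Zfp36l2 shared H3f3b among their 3 most alike (0.956 and 0.988). Dusp6 was most like Hmox1 (0.980). The low Dusp4, Dusp5 and Dusp10 had weaker best matches, Cisd2 (0.906), Fbh1 (0.887) and Ints12 (0.861).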
